A study of Mus musculus with 8 samples.

Results

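The dual-specificity MAPK phosphatases were followed in mouse liver after ischemia/reperfusion (I/R). The 10 genes Dusp1, Dusp2, Dusp4, Dusp5, Dusp6, Dusp8, Dusp9, Dusp10, Dusp14 and Dusp16 were taken by name from a table of 54532 genes, and all 10 were among the 16645 genes tested. MAP kinases (ERK, JNK and p38) are switched on by the addition of phosphate to a threonine and a neighbouring tyrosine, and dual-specificity phosphatases switch them off by removing both. Several of these phosphatases are themselves transcribed within minutes to hours of MAP kinase activation, so that they form a negative feedback loop. The family is usually sorted into inducible nuclear enzymes (Dusp1, Dusp2, Dusp4, Dusp5), cytosolic ERK phosphatases (Dusp6, Dusp9) and enzymes that prefer JNK and p38 (Dusp8, Dusp10, Dusp16), while Dusp14 is a small atypical member that lacks the kinase-docking domain of the others.

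Livers of 4 METTL3-HKD and 4 METTL3-Flox mice were sequenced, each ischemic for 1 h and then reperfused for 6 h. METTL3 is the catalytic subunit of the complex that writes m6A on RNA. METTL3-HKD mice carried METTL3 flox/- with Alb-iCre, a recombinase driven by the albumin promoter and so meant for hepatocytes, and METTL3-Flox mice were flox/flox littermates, with exon 4 as the floxed exon in both. METTL3-HKD is a heterozygous knockdown, used because mice that lacked both copies in hepatocytes died early. Both groups underwent I/R, no sham-operated liver is among the libraries analysed here, and the age of these mice is not given in the sources used here. The RNA is that of whole liver, so that in every comparison a change in the number of cells of a type cannot be told apart from a change in RNA per cell. The livers are separate samples of each group, and the p-values set the difference of the group means against the spread between livers.

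Libraries held 15861245 to 18434488 reads on genes. The albumin gene Alb was at 15100 to 22100 FPKM (a read density, corrected for the length of the gene and for library size) in METTL3-HKD and 17900 to 19400 FPKM in METTL3-Flox, the level of a liver. Mettl3 itself was at 1.33 ± 0.181 FPKM in METTL3-HKD and 1.5 ± 0.282 FPKM in METTL3-Flox (SD, n = 4 each), with a log2 fold change of -0.16 (limma adjusted p = 0.556), so the whole-gene level does not check the genotype labels. Genes were called upregulated or downregulated at a limma adjusted p under 0.05 over all tested genes together with a log2 fold change past 1 or -1, on log2(FPKM + 0.1), a scale that understates the change of low genes.

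Of the 10 genes, 8 were upregulated in METTL3-HKD livers and none was downregulated. The 8 were Dusp1, Dusp4, Dusp5, Dusp6, Dusp8, Dusp9, Dusp10 and Dusp14, whereas Dusp2 and Dusp16 did not pass. Over all tested genes, 4.70% were upregulated (782 of 16645) and 1.52% were downregulated (253). The median log2 fold change of the 10 genes was 1.90, against -0.00 for all tested genes, and all 10 estimates were above 0, from 0.39 for Dusp16 to 4.71 for Dusp5. In 7 of the 10 the lowest METTL3-HKD liver exceeded the highest METTL3-Flox liver, a pattern found in 12.7% of all tested genes, and the 3 that overlapped were Dusp2, Dusp8 and Dusp16. The count of 8 rested in part on single livers, since without METTL3-Flox liver 2, or without METTL3-Flox liver 4, it was 5, with Dusp1, Dusp8 and Dusp10 no longer past the adjusted p. With a pseudocount of 1 FPKM it was 4, as Dusp8, Dusp9, Dusp10 and Dusp14 fell short of the fold threshold on that scale.

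**Figure D1:**
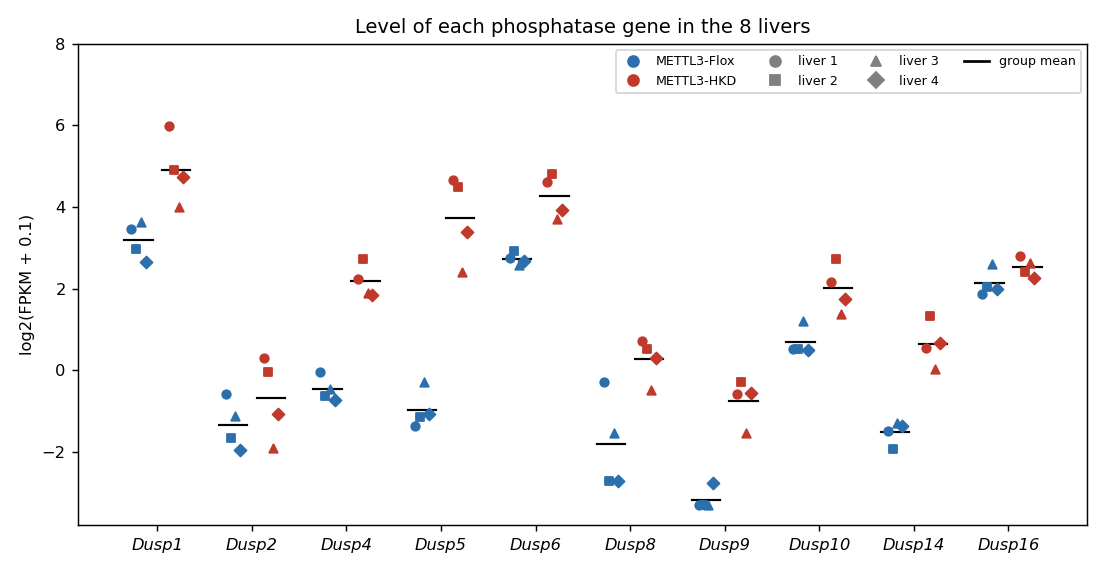
Level of each of the 10 phosphatase genes as log2(FPKM + 0.1) in the 4 METTL3-Flox livers (blue) and the 4 METTL3-HKD livers (red), with a symbol for each liver and a line at the group mean. Red points lie above all blue points of the same gene in 7 of 10 genes, and the groups overlap for Dusp2, Dusp8 and Dusp16.

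Promoter sequences of 8 of the 10 genes were matched by symbol in RefSeq (GRCm38.p6), in windows from 250 bases before to 50 bases after the RefSeq start. Dusp4 and Dusp9 were not matched. The windows were searched on both strands for letters that stimulus-responsive transcription factors bind. The cyclic AMP response element TGACGTCA, bound by CREB and ATF proteins, was in the windows of Dusp1 and Dusp8 and in 1.79% of 32851 promoters. The CArG box, bound by serum response factor, which works with the ERK targets of the ternary complex family, was in that of Dusp5 and in 1.63% of all promoters. The E-box CACGTG was found in Dusp1 and Dusp2 and in 7.15% of promoters. Neither the AP-1 letters TGANTCA (7.81% of promoters) nor the NF-kB motif (4.51%) was in any of the 8 windows. For Dusp10 and Dusp14 the RefSeq start lies 21079 and 904 bases downstream of the start of the deposited gene, and other starts were not searched. The 8 windows held 57.3% to 73.3% GC, against a median of 52.7% over all promoters, and the shares are not corrected for this. A stretch of 100 bases is shown for each of the 3 upregulated genes with a match to the first 2 motifs, 5′ to 3′ on the gene's strand, with the matched letters in capitals. That of Dusp1 is chr17:26508553-26508652 on the minus strand, with TGACGTCA at -143 to -136 and CACGTG at -126 to -121 from the start. That of Dusp5 is chr19:53528995-53529094 on the plus strand, with CArG boxes at -82 to -73 and -72 to -63, directly next to each other. That of Dusp8 is chr7:142095315-142095414 on the minus strand, with TGACGTCA at -107 to -100 and at -63 to -56. Positions are counted from the RefSeq start, which lies 47, 36 and 559 bases downstream of the start of the deposited gene for Dusp1, Dusp5 and Dusp8, so that the Dusp8 stretch lies inside the deposited gene, outside the exons of Dusp8 in GENCODE M21. No binding was measured in this study, and a match of letters is a description only.
Dusp1: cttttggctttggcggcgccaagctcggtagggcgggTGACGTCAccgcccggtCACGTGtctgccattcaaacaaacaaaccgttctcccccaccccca
Dusp5: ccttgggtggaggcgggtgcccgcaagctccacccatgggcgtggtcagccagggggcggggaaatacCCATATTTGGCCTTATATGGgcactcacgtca
Dusp8: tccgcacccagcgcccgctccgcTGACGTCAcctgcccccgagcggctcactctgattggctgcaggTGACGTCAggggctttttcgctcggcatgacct

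Among the inducible nuclear phosphatases, Dusp5 changed most. Dusp5 (ENSMUSG00000034765, chr19:53529109-53542431, plus strand) encodes a phosphatase that acts on ERK alone and holds it in the nucleus, and it carries the paired CArG boxes shown above. METTL3-HKD livers 1 to 4 were at 25.4, 22.5, 5.17 and 10.3 FPKM, and METTL3-Flox livers 1 to 4 at 0.285, 0.350, 0.718 and 0.377 FPKM. The lowest METTL3-HKD liver, liver 3, was thus still above the highest METTL3-Flox liver, also a liver 3. Group means were 15.9 ± 9.66 and 0.432 ± 0.194 FPKM (SD, n = 4 each), a ratio of 36.7, and the log2 fold change was 4.71 with an SE of 0.482 and a 95% interval of 3.62 to 5.80 (limma adjusted p = 0.0019). With a pseudocount of 1 FPKM it was 3.34. The METTL3-Flox livers held only 10 to 27 reads of the gene each, against 231 to 1262 in METTL3-HKD. The annotation places 547 exon bases of Dusp5 under the antisense gene AC137853.2, and since the strand setting of the counting is not given, reads of the pair cannot be told apart.

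Dusp4 (ENSMUSG00000031530, chr8:34807297-34819894, plus strand) encodes MKP-2, a nuclear phosphatase of ERK and JNK. Its levels were 4.64, 6.48, 3.60 and 3.48 FPKM in METTL3-HKD and 0.873, 0.542, 0.624 and 0.499 FPKM in METTL3-Flox. The lowest METTL3-HKD liver was well above the highest METTL3-Flox liver. The means were 4.55 ± 1.39 and 0.635 ± 0.167 FPKM, with a log2 fold change of 2.64 (SE 0.230, 95% interval 2.12 to 3.16, limma adjusted p = 0.00112), the smallest adjusted p of the 10 genes, and the call held in all 16 alternatives for the adjusted p.

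Dusp1 (ENSMUSG00000024190, chr17:26505590-26508519, minus strand) encodes MKP-1, the immediate early phosphatase of p38, JNK and ERK, and was the most abundant of the 10 in both groups. METTL3-HKD livers were at 63.5, 29.8, 15.9 and 26.6 FPKM and METTL3-Flox livers at 11, 7.8, 12.4 and 6.15 FPKM. METTL3-HKD liver 1 stood well above the rest of its group, while liver 3 came near the highest METTL3-Flox liver. The means were 33.9 ± 20.6 and 9.33 ± 2.86 FPKM, and the log2 fold change was 1.72 (SE 0.390, 95% interval 0.84 to 2.60, limma adjusted p = 0.0219). The limma adjusted p was 0.0633 without METTL3-Flox liver 2, 0.0632 without METTL3-Flox liver 4 and 0.0584 without METTL3-HKD liver 2, whereas without METTL3-HKD liver 1 the log2 fold change was 1.36 and the call held (adjusted p = 0.0383).

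Dusp2 (ENSMUSG00000027368, chr2:127336159-127338376, plus strand) encodes PAC-1, a nuclear phosphatase best known from activated immune cells. It was at 1.12, 0.864, 0.166 and 0.376 FPKM in METTL3-HKD and at 0.562, 0.216, 0.361 and 0.155 FPKM in METTL3-Flox. The groups overlapped, METTL3-HKD liver 3 being lower than 3 of the METTL3-Flox livers. The log2 fold change was 0.65 with a 95% interval of -0.49 to 1.79 (limma adjusted p = 0.414), and the gene had 5 to 45 reads per library, so that a change of the size seen for Dusp1 lies inside the interval.

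Both cytosolic ERK phosphatases were upregulated. Dusp6 (ENSMUSG00000019960, chr10:99263231-99267489, plus strand) encodes MKP-3, whose transcript is widely used as a readout of ERK signalling. It was at 24.2, 28.0, 12.9 and 15.0 FPKM in METTL3-HKD and at 6.65, 7.43, 5.90 and 6.25 FPKM in METTL3-Flox. The METTL3-Flox livers were nearly alike, and METTL3-HKD livers 1 and 2 were higher than livers 3 and 4. The means were 20.0 ± 7.26 and 6.56 ± 0.657 FPKM, with a log2 fold change of 1.53 (SE 0.236, 95% interval 1.00 to 2.06, limma adjusted p = 0.00679), and the adjusted p stayed under the threshold in all 16 alternatives.

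Dusp9 (ENSMUSG00000031383, chrX:73639419-73643514, plus strand) encodes MKP-4, the X-linked relative of Dusp6. METTL3-HKD livers were at 0.566, 0.716, 0.244 and 0.573 FPKM, whereas METTL3-Flox livers were at 0, 0, 0 and 0.0456 FPKM. In reads these were 31, 36, 12 and 29 against 0, 0, 0 and 2, so the gene was close to undetected in METTL3-Flox at this depth. Pooled over each group, 108 reads stood against 2, a ratio of 44.3 per unit of library size with a 95% exact Clopper-Pearson interval of 12.0 to 370 that covers counting error only. The fitted log2 fold change was 2.44 (limma adjusted p = 0.00465), but its size followed the pseudocount, at 0.58 with a pseudocount of 1 FPKM and 4.80 with voom on reads, with the adjusted p under 0.05 in each.

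The third member of this branch, Dusp7, also a cytosolic ERK phosphatase, is not among the 10 genes and was read as a neighbour within the same livers. It was at 2.20 ± 0.568 FPKM in METTL3-HKD and 2.04 ± 0.426 FPKM in METTL3-Flox, with a log2 fold change of 0.09 (95% interval -0.37 to 0.56, limma adjusted p = 0.796). The ratio of Dusp6 to Dusp7, which needs no scaling between libraries, was 8.75, 10.7, 7.65 and 8.59 in METTL3-HKD livers and 2.50, 3.80, 3.24 and 3.63 in METTL3-Flox livers. All 4 ratios in METTL3-HKD were higher. This ratio and that of Dusp10 to Dusp16 below were chosen after the values of the genes were seen, and are given as descriptions with no test.

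Of the JNK and p38 phosphatases, Dusp8 and Dusp10 were upregulated and Dusp16 was not. Dusp10 (ENSMUSG00000039384, chr1:184013302-184075636, plus strand) encodes MKP-5. It was at 4.36, 6.49, 2.51 and 3.25 FPKM in METTL3-HKD and at 1.32, 1.32, 2.21 and 1.31 FPKM in METTL3-Flox. METTL3-Flox liver 3 stood apart from the rest of its group and came near METTL3-HKD liver 3, but the groups did not overlap. The means were 4.16 ± 1.73 and 1.54 ± 0.445 FPKM, with a log2 fold change of 1.32 (SE 0.288, 95% interval 0.67 to 1.98, limma adjusted p = 0.0193). The limma adjusted p was 0.0565 without METTL3-Flox liver 2, 0.0566 without METTL3-Flox liver 4 and 0.0625 without METTL3-HKD liver 1.

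Dusp16 (ENSMUSG00000030203, chr6:134715468-134792625, minus strand) encodes MKP-7, which shuttles between nucleus and cytoplasm. Its levels of 6.88, 5.16, 6.05 and 4.66 FPKM in METTL3-HKD overlapped those of 3.57, 4.02, 6.01 and 3.86 FPKM in METTL3-Flox. METTL3-Flox liver 3 was again the highest of its group. The log2 fold change was 0.39 with a 95% interval of -0.03 to 0.80 (limma adjusted p = 0.180), an interval that lies below a doubling. Within livers, the ratio of Dusp10 to Dusp16 was 0.634, 1.26, 0.415 and 0.698 in METTL3-HKD and 0.369, 0.329, 0.367 and 0.339 in METTL3-Flox. The METTL3-HKD ratios were all higher, though that of liver 3 was close to the METTL3-Flox values.

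Dusp8 (ENSMUSG00000037887, chr7:142079490-142095843, minus strand) encodes a JNK and p38 phosphatase known mainly from brain, heart and muscle. METTL3-HKD livers were at 1.54, 1.34, 0.614 and 1.13 FPKM and METTL3-Flox livers at 0.722, 0.0508, 0.243 and 0.0510 FPKM. METTL3-Flox liver 1 lay above METTL3-HKD liver 3, and 2 of the METTL3-Flox livers held only 4 reads each. The log2 fold change of 2.08 (SE 0.545, 95% interval 0.85 to 3.32) had a limma adjusted p of 0.0348, but this was the least firm of the 8 calls. The limma adjusted p lay above 0.05 in 8 of 15 alternatives, among them the omission of METTL3-Flox liver 2, 3 or 4 and of METTL3-HKD liver 1, 2 or 4, with a highest value of 0.104, and the exact permutation p was 0.0571.

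Dusp14 (ENSMUSG00000018648, chr11:84048041-84069261, minus strand), the atypical member also called MKP-6, was at 1.35, 2.42, 0.911 and 1.49 FPKM in METTL3-HKD. In METTL3-Flox it was at 0.253, 0.159, 0.304 and 0.287 FPKM, from 5 to 9 reads per library. No METTL3-HKD liver came near a METTL3-Flox liver. The log2 fold change was 2.17 (SE 0.286, 95% interval 1.53 to 2.82, limma adjusted p = 0.00396), which held in all 15 alternatives for the adjusted p, with a value of 0.99 at a pseudocount of 1 FPKM.

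**Figure D2:**
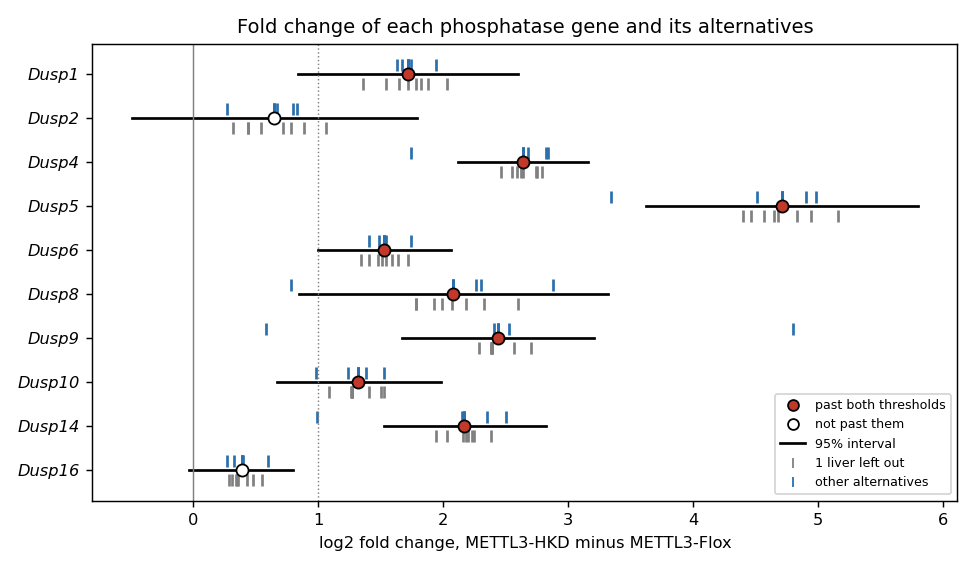
log2 fold change of METTL3-HKD against METTL3-Flox for each phosphatase gene (points) with its 95% interval (lines), and the values with 1 liver left out (grey ticks) or under the other alternatives (blue ticks). No tick lies below 0 for any of the 10 genes, and the blue ticks of Dusp9, at 0.58 and 4.80, lie farthest from their point.

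On the FPKM scale, which is per length and so allows levels of genes to be compared, the order of the 10 genes differed between groups. In METTL3-Flox it ran Dusp1, Dusp6, Dusp16, Dusp10, Dusp4, Dusp5, Dusp2, Dusp8, Dusp14 and Dusp9. Neighbours whose livers did not overlap were Dusp16 over Dusp10, Dusp10 over Dusp4 and Dusp14 over Dusp9. In METTL3-HKD it ran Dusp1, Dusp6, Dusp5, Dusp16, Dusp4, Dusp10, Dusp14, Dusp8, Dusp2 and Dusp9, and of these neighbours only Dusp10 and Dusp14 did not overlap. Dusp5 thus stood at rank 6 in METTL3-Flox and at rank 3 in METTL3-HKD.

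Summed over the 10 genes, METTL3-HKD livers 1 to 4 held 134, 104, 48.0 and 66.9 FPKM and METTL3-Flox livers 25.2, 21.9, 28.8 and 19.0 FPKM. Every METTL3-HKD sum was above every METTL3-Flox sum, although METTL3-HKD liver 1 held the highest sum and liver 3 the lowest. Dusp5 made up 19.0%, 21.7%, 10.8% and 15.5% of the sum in METTL3-HKD and 1.13%, 1.60%, 2.50% and 1.99% in METTL3-Flox. Dusp16 made up 5.15%, 4.97%, 12.6% and 6.97% in METTL3-HKD and 14.2%, 18.4%, 20.9% and 20.3% in METTL3-Flox. Its own mean level was not lower in METTL3-HKD (5.69 against 4.36 FPKM), so that its smaller share reflects the larger sum. The shares of both genes were separated between groups in all livers.

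**Figure D3:**
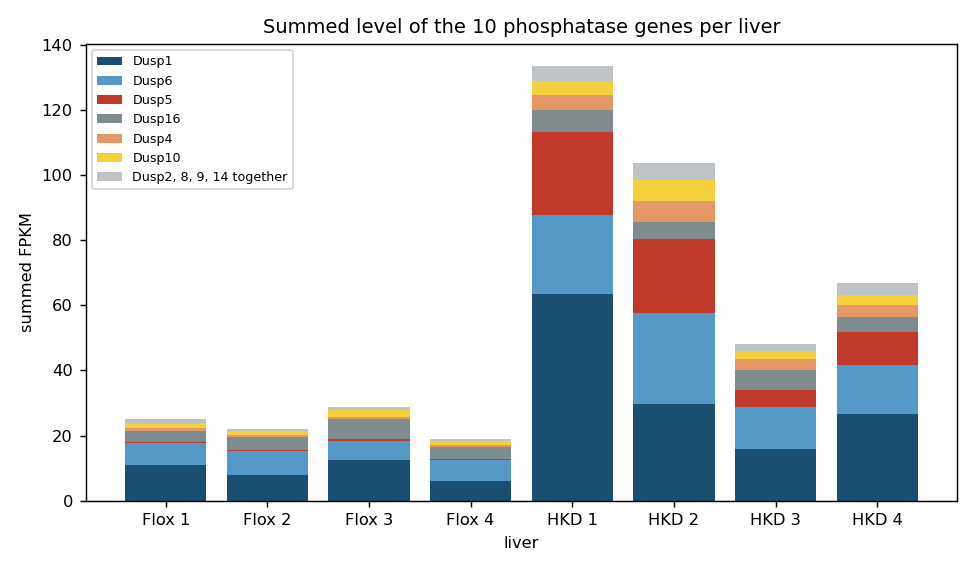
Summed FPKM of the 10 phosphatase genes in each liver, as stacked bars from 0 with a colour for each of the 6 most abundant genes in METTL3-HKD and 1 for the other 4 together. The METTL3-HKD bars reach 48.0 to 134 FPKM and the METTL3-Flox bars 19.0 to 28.8 FPKM, and the red Dusp5 part is seen almost only in METTL3-HKD.

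The METTL3-HKD livers were ordered alike across the upregulated phosphatases. Liver 3 was the lowest METTL3-HKD liver in 7 of the 8, the exception being Dusp4, in which liver 4 was lowest. Liver 2 was the highest in 5 (Dusp4, Dusp6, Dusp9, Dusp10, Dusp14) and liver 1 in 3 (Dusp1, Dusp5, Dusp8). The low place of liver 3 was shared with the whole set of 782 upregulated genes, in 69.7% of which it was lowest. The top place differed, with liver 1 highest in 65.5% of the 782 genes and liver 2 in 24.7%, against 37.5% and 62.5% of the 8 phosphatases. The 8 are few, vary together and are among the 782, so no trait of the family can be read from this. After removal of the group means, the 10 genes had a median r of 0.56 over 45 pairs across the 8 livers. The values ran from -0.29 to 0.89 and were positive in 40 pairs. They share libraries and are given as a description. The same was not computed for other genes, so it is not shown to be particular to the phosphatases. For a mean profile, each phosphatase was divided by its SD over all 8 livers, so that genes with a large group difference weighed less. As 10688 genes averaging 1 FPKM or more were ranked over only 8 livers, the highest r values are partly high by selection. The 5 genes whose deviations were most like this profile were Irf8 (r = 0.99), Ets2, Taf7, Herpud2 and Socs5 (r = 0.98 each). Of these, Ets2, an ETS transcription factor, had a log2 fold change of 1.25 between the groups (limma adjusted p = 0.0144) and Socs5, a suppressor of cytokine signalling, one of 1.04 (limma adjusted p = 0.00412), whereas Irf8 had one of -0.04 (limma adjusted p = 0.939).

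**Figure D4:**
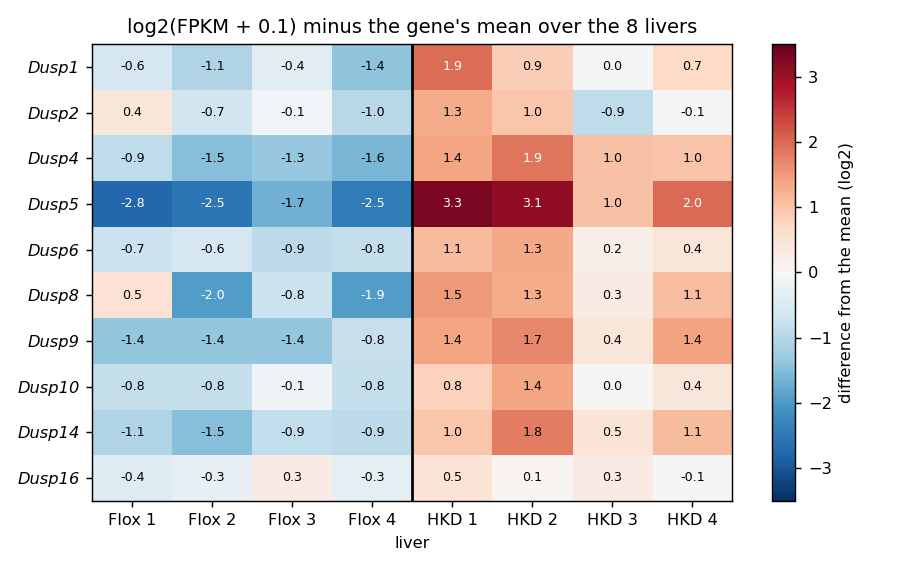
Difference of log2(FPKM + 0.1) from the mean of the gene over the 8 livers, for the 10 phosphatase genes (rows) in METTL3-Flox livers 1 to 4 and METTL3-HKD livers 1 to 4 (columns), red above and blue below the mean. METTL3-HKD liver 3 is the palest of its group in 7 of the 8 upregulated genes, all but Dusp4, and is blue in Dusp2. METTL3-Flox livers 1 and 3 hold the positive cells of their group, in Dusp2, Dusp8 and Dusp16.

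The rest of the family and its pathway were read in the same fit. Of 16 other dual-specificity phosphatases, 9 were tested and none was called in either direction or passed the adjusted p (limma; Dusp3, Dusp7, Dusp11, Dusp12, Dusp19, Dusp22, Dusp23, Dusp28 and Styx), with a median log2 fold change of -0.07 and a range of -0.27 to 0.16. The highest of these was Dusp3, a small ERK and JNK phosphatase, at 9.93 ± 0.504 FPKM in METTL3-HKD and 8.91 ± 0.543 FPKM in METTL3-Flox. Across all tested genes, 5305 had an unadjusted p under 0.05. Dusp15 and Dusp21 were listed at 0 in all 8 livers.

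The substrates, 10 MAP kinase genes of which 9 were tested, gave no call in either direction, with a median log2 fold change of 0.13. Mapk3 had a log2 fold change of -0.28, the JNK gene Mapk8 had 0.35 and the p38 gene Mapk14 had -0.28, with limma adjusted p-values of 0.0991, 0.0977 and 0.208. Mapk13, a p38 gene of epithelia, had the highest value at 1.06 (limma adjusted p = 0.224), and it passed the thresholds only when METTL3-HKD liver 3 was left out, in which it was at 0.0351 FPKM.

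Of 8 phosphatases of other families that act on MAP kinases, 6 were tested and none passed the fold threshold. Ppp2cb and Ppp2ca, the catalytic subunits of PP2A, were higher in METTL3-HKD by log2 fold changes of 0.65 and 0.37 (limma adjusted p = 0.0162 and 0.0306), and Ppm1b, a PP2C phosphatase, had a value of -0.30 (limma adjusted p = 0.0302). Ppp2cb was at 33.3 to 51.6 FPKM in METTL3-HKD and 24.8 to 29.3 FPKM in METTL3-Flox. The 10 dual-specificity phosphatases ranged from 0.39 to 4.71, and Dusp16 (0.39) and Dusp2 (0.65) were of a size with Ppp2ca and Ppp2cb. The 8 upregulated ones, with a lowest log2 fold change of 1.32, were picked by the fold threshold itself.

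Sprouty and Spred proteins form the other feedback arm on ERK, since they block the step from growth factor receptors to Ras and Raf. Of 7 such genes, 6 were tested and 3 were upregulated, with a median log2 fold change of 0.85. Spry2 was at 2.43, 2.0, 0.928 and 1.99 FPKM in METTL3-HKD and at 0.809, 0.534, 0.599 and 0.595 FPKM in METTL3-Flox, a log2 fold change of 1.34 (limma adjusted p = 0.0161). Spred1 and Spry4 followed at 1.16 and 1.14 (limma adjusted p = 0.0135 and 0.0486), and Spry1 was at -0.10 (limma adjusted p = 0.659). METTL3-HKD liver 3 was the lowest of its group for Spry2, Spred1 and Spry4. It was also lowest in 7 of the 8 upregulated phosphatases, and in 69.7% of all 782 upregulated genes. The count of 3 was 1 without METTL3-Flox liver 3, 1 without METTL3-HKD liver 1 and 0 with a pseudocount of 1 FPKM.

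**Figure D5:**
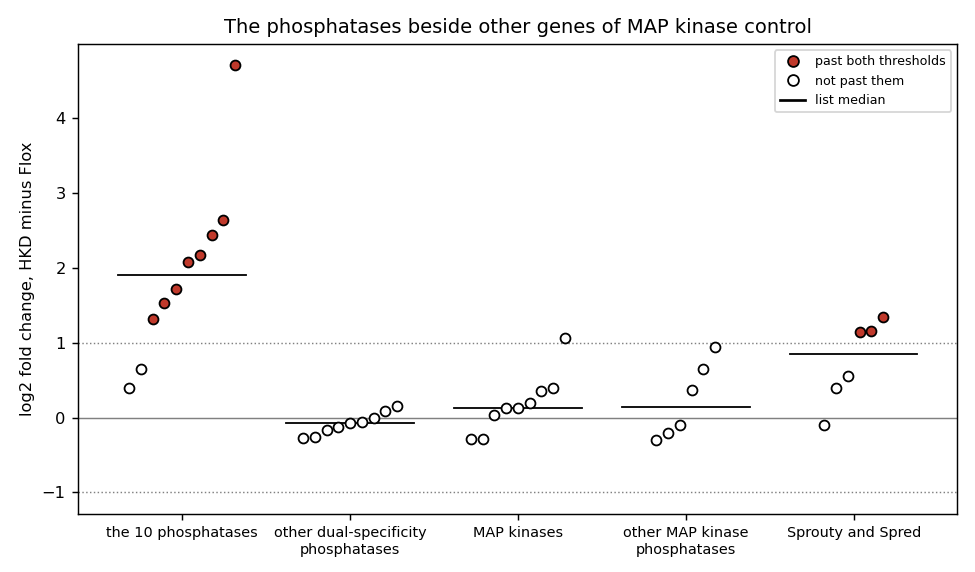
log2 fold change of METTL3-HKD against METTL3-Flox for each tested gene (points) in 5 lists, with filled points for genes past both thresholds and a line at the median of each list. The phosphatases have a median of 1.90 and 8 filled points, Sprouty and Spred genes a median of 0.85 and 3 filled points, and the other lists medians from -0.07 to 0.13 and no filled point.

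Markers of other cell types moved between the groups as well. Of 10 neutrophil markers, 7 were upregulated, among them the granulocyte colony-stimulating factor receptor Csf3r at 15.1, 7.99, 7.56 and 9.50 FPKM in METTL3-HKD and 0.838 to 1.17 FPKM in METTL3-Flox (log2 fold change 3.12, limma adjusted p = 0.000511). S100a8 was at 99.6 to 519 FPKM against 3.32 to 16.9 FPKM (log2 fold change 4.44, limma adjusted p = 0.00414), and no marker of this list was at 0 in all livers. The summed level of the 10 was 942 to 2480 FPKM in METTL3-HKD and 645 to 2340 FPKM in METTL3-Flox, most of the METTL3-Flox sum being Lcn2, which injured hepatocytes also make. For both Csf3r and S100a8, METTL3-HKD liver 1 was highest and liver 3 lowest. Liver 3 was also lowest in 7 of the 8 phosphatases, and in 69.7% of all 782 upregulated genes. In 5 of the 8 phosphatases liver 2 was highest.

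Of 7 biliary markers tested, 5 were upregulated, Cldn7, Spp1, Krt19 and Sox9 among them, with summed levels over the list of 124 to 372 FPKM in METTL3-HKD and 56.6 to 83.0 FPKM in METTL3-Flox. Spp1 made up most of these sums, at 109 to 355 FPKM and 46.4 to 73.5 FPKM. Of 10 macrophage and Kupffer cell markers, 3 were downregulated (Cd5l, Timd4 and Clec4f) and none was upregulated, with sums of 140 to 280 FPKM against 261 to 621 FPKM. Of 9 hepatocyte markers, none was called, although the transcription factor Hnf4a was lower at -0.48 (limma adjusted p = 0.0187), and their median log2 fold change was -0.47. The sums, with Alb as the largest part, were 25900 to 37400 FPKM in METTL3-HKD and 33800 to 39200 FPKM in METTL3-Flox. They were lowest in METTL3-HKD livers 1 and 2, which had the highest summed phosphatase levels. Within METTL3-HKD, livers 1 and 2 also had the highest macrophage, endothelial and lymphocyte sums. The neutrophil, biliary and stellate sums were not split in this way. Among 10 stellate cell and fibroblast markers, 1 was upregulated and 1 downregulated (sums 52.8 to 74.1 and 50.7 to 83.6 FPKM). None of 10 endothelial markers was called (sums 81.7 to 93.5 and 92.0 to 100 FPKM), although Dnase1l3 and Oit3 were lower in METTL3-HKD at -0.78 and -0.53 (limma adjusted p = 0.00357 and 0.0133). None of 6 tested lymphocyte markers was called (0.989 to 4.03 and 0.982 to 1.93 FPKM). The 8 mitochondrial mRNAs, given as a sign of RNA quality, had a median log2 fold change of -0.13 with no call, and their sums of 19000 to 34200 FPKM in METTL3-HKD were lowest in livers 1 and 2, against 28500 to 33200 FPKM in METTL3-Flox. The part of any of these in the phosphatase levels was not tested.

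The transcripts of the 10 genes were also read for letters tied to RNA turnover, in the principal transcripts of GENCODE M21 on GRCm38. GGACT, the commonest form of the m6A motif, occurred at a median of 1.03 per kb over the 10 transcripts, against 1.06 per kb over 13093 tested protein-coding genes and 1.12 per kb over those upregulated. Within the family it was most frequent in Dusp6, with 8 copies or 2.86 per kb (higher than in 96.9% of all), followed by Dusp4 at 2.19 and Dusp1 at 2.01 per kb, and Dusp2 had none. Dusp5 had 0.809 per kb. No relation of this density to the fold change was tested. The pentamer ATTTA of AU-rich elements was in the 3′ UTR of 9 of the 10 genes, all but Dusp14, against 67.7% of all genes and 69.0% of the upregulated ones. Per kb of 3′ UTR its median was 1.52 in the 10 genes, 1.31 in all genes and 1.55 in the upregulated ones. Dusp1 and Dusp2 had the highest densities, at 5.80 and 6.88 per kb, higher than in 95.1% and 96.8% of genes. The longer element TTATTTATT, which contains ATTTA, was in the 3′ UTR of Dusp1 and Dusp8, in 7.10% of all genes and in 10.7% of the upregulated ones. Neither m6A nor RNA decay was measured in these libraries.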

How the data were processed

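RNA sequencing of 8 livers (4 METTL3-HKD, 4 METTL3-Flox) was analysed. The authors deposited FPKM per gene with gene lengths. GRCm38/mm10 is named in the submitters' processing notes, while the aligner, counter, annotation and strand setting are not given in the sources used here. FPKM multiplied by gene length and an effective library size gave whole reads (within 0.05) for 100% of non-zero values in every library. Reads on genes came to 0.857 to 0.992 per unit of this size in METTL3-HKD and 0.992 to 1.19 in METTL3-Flox. They exceeded it in some METTL3-Flox livers, so the size is not a plain read total and the deposited values appear scaled between libraries. Every METTL3-HKD size (18063236 to 20114825) was above every METTL3-Flox size (14210943 to 16158035), so this scaling differed between the compared groups. The Clopper-Pearson interval reflects counting error alone.

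Those averaging 0.1 FPKM or more over the 8 livers, 16645 genes, were compared on log2(FPKM + 0.1) in limma 3.58.1 under R 4.3.3. The fit used lmFit, and eBayes with its trend option, and p-values were adjusted by Benjamini-Hochberg. The thresholds (adjusted p of 0.05, absolute log2 fold change of 1) follow the study. The script was tested on simulated data, with changes planted only in well-covered genes and less spread than several phosphatases showed. That test does not cover the genes with few reads. Exact permutation tests enumerated all 70 arrangements (scipy 1.17.1). Overlap of exons was read from GENCODE M21: 66 exon bases of Dusp8 lie under Gm32786, listed at 0 FPKM, and the annotated Dusp1 differs in its ends from the deposited gene.

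The phosphatases and all lists were chosen with earlier results of these data known. Named genes are the 10 phosphatases, Mettl3, up to 4 genes per list with the smallest adjusted p past both thresholds, and the 5 most alike in profile. Other genes of the lists named beside their counts were chosen after their values were seen. There were 16 alternatives. In 8 of them 1 liver was omitted. The others were a minimum mean raised to 1 FPKM or dropped, a pseudocount raised to 1 FPKM, eBayes without trend, quality weights per library, the replicate number as a block, voom on the rebuilt reads, and values rescaled by total reads on genes. The values of 1 listed gene are not reported here. Genes under 1 FPKM could not be tested with the higher minimum.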

Additional observations from a re-analysis of the deposited data

Results flagged for a closer look

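In 2 of the 20 groups of 4 livers checked (10 phosphatase genes in each group), 1 liver lay far from the other 3 by Dixon's ratio of its gap to the range, and chance alone flags about 1 in 20. Dusp10 in METTL3-Flox liver 3 was at 2.21 FPKM against 1.31 to 1.32 FPKM in the other livers of its group, a ratio of 0.983. Without this liver the log2 fold change of Dusp10 was 1.5 (limma adjusted p = 0.0335). Dusp9 in METTL3-Flox liver 4, with 2 reads against 0 in the other 3, had a ratio of 1, which any single non-zero value gives. Without it the log2 fold change was 2.57 (limma adjusted p = 0.0158).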

How the results depend on the processing

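Over the 10 phosphatase genes and all alternatives that could test them, 156 estimates were made, and none changed sign. Of these, 141 stayed on the same side of the adjusted p and 15 lost it, namely 3 of Dusp1, 8 of Dusp8 and 4 of Dusp10. The number upregulated was 8 in the reported fit, 4 with a pseudocount of 1 FPKM (Dusp1, Dusp4, Dusp5 and Dusp6, the others being at 0.99 or less), 5 of 6 tested with a minimum mean of 1 FPKM, and 5 to 8 with 1 liver left out. On the adjusted p alone, 8 genes were higher with a pseudocount of 1 FPKM. With a minimum mean of 1 FPKM 5 of 6 tested were, and with 1 liver left out 5 to 8. Over all genes, 317 were upregulated and 88 downregulated with a pseudocount of 1 FPKM, and 450 were upregulated with a minimum mean of 1 FPKM. The downregulated numbered 163 with no minimum and 133 when values were rescaled by total reads on genes. With 1 liver left out, 487 to 957 were upregulated and 94 to 336 downregulated, lowest for the former without METTL3-HKD liver 1. Fewer genes tested and fewer samples are part of some of these alternatives; otherwise the cause was not tested.

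Rescaling by total reads on genes moved the median over all genes from -0.00 to 0.19 and that over the phosphatases from 1.90 to 2.10 (log2 fold change), and raised the share of calls that were upregulated from 75.6% to 88.6%. Same-numbered livers did not deviate together (r from -0.084 to 0.071). This gives no sign that the numbers pair them, though so few livers cannot exclude it. With a replicate block 7 of the phosphatases were upregulated, Dusp10 having a limma adjusted p of 0.0548, beside 616 genes upregulated and 200 downregulated. Depth limits Dusp2, Dusp5, Dusp8, Dusp9 and Dusp14, which had fewer than 20 reads in at least 1 library each.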
